A study of Mus musculus with 4 samples.

Results

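The genes described here are the ligands of the epidermal growth factor (EGF) receptor and 3 receptors of its family: Egf, Tgfa, Areg, Ereg, Epgn, Hbegf, Btc, Egfr, Erbb2 and Erbb3. They were taken by symbol from the probe annotation of the array, using probe sets with 1 gene symbol and, where a gene had several, the brightest by its mean over the 4 arrays. Of these 10 genes, 9 were found among the 22180 genes measured: 6 of the 7 ligands and all 3 receptors. Areg is not named by a single-symbol probe set in the annotation used here and was not analysed here.

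Stomachs of FVB mice, 1 year old, were profiled on 4 arrays: 2 samples carried the label Hdc+/+ and 2 the label Hdc-/-, with no treatment named. The product of Hdc, histidine decarboxylase, makes histamine, and the comparison asks how stomach gene expression differs without it. Titles give both samples of each genotype as biological replicates. Separate animals are not stated. The p-values here reflect the spread among these samples, drawn in part from all genes, and may not reflect that among animals. No label gives the sex of the mice, the region of the stomach or the allele of Hdc.

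EGF receptor ligands are made as membrane-bound precursors that metalloproteases such as ADAM17 cut free. They bind the receptor encoded by Egfr, which then pairs with itself or with the products of Erbb2 and Erbb3 and signals through the Ras, MAP kinase and PI3 kinase routes. In the stomach this pathway is known for its part in repair of the mucosa, in growth of surface mucous cells and in restraint of acid secretion.

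All values are log2 signals of 41345 probe sets, and the array medians ran from 4.05 to 4.15. Hdc itself read between 3.77 and 4.06 on the 4 arrays with overlapping groups, so it did not check the labels. Hdc+/+ and Hdc-/- below therefore name the labels of the arrays, and each direction depends on them. The tissue label was borne out by its glandular markers, of which 13 of 14 were measured. Their summed signals ran from 15.37 to 15.57 on the log2 scale. Such sums mostly reflect the brightest genes, and single glandular markers differed more. At an unadjusted p under 0.05, 3 were higher on the Hdc-/- arrays (Chga by 1.89, Cblif by 1.07, Pgc by 0.64) and 0 lower, with a list median of 0.01. On Hdc-/- array 1, Muc6 read 11.94, against at most 9.30 on the other arrays. Gast read 5.18 there, against at least 6.70 on the others. Markers of adjoining tissue varied strongly. The 13 hepatocyte markers had summed log2 signals of 12.17 and 13.70 on the Hdc+/+ arrays 1 and 2 and of 9.66 and 10.05 on the Hdc-/- arrays 1 and 2. The 7 measured pancreatic markers had 6.81 and 12.27 against 7.29 and 7.38, so Hdc+/+ array 2 stood apart. The 12 intestine markers had 10.40 and 12.52 against 9.57 and 9.27, again highest on Hdc+/+ array 2, with 3 genes lower and 0 higher at an unadjusted p under 0.05 and a median difference of -1.30. Of 8 immune cell markers 7 were measured, and 4 were higher and 0 lower on the Hdc-/- arrays by that threshold, with a median difference of 0.63. Around gene means the immune list read -0.33 and -0.09 on the Hdc+/+ arrays and 0.31 and 0.23 on the Hdc-/- arrays. No value in the table is 0. In whole tissue, fewer cells of a type and less RNA per cell cannot be told apart.

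No ligand or receptor gene passed the test of genotype, and the differences were small. Across the 9 genes the log2 difference, Hdc-/- minus Hdc+/+, ran from -0.45 (Epgn) to 0.26 (Erbb2), with a median of 0.00 against 0.02 over all 22180 genes. With limma and Benjamini-Hochberg adjustment over all genes, 0 of the 9 passed at 0.05, with adjusted p from 0.602 to 0.998. The background was as sparse, with 1 gene higher (0.00451%) and 0 lower (0%). An unadjusted p under 0.05 was reached by 0 of the 9, against 3.68% of all genes higher and 4.87% lower. The 2 groups did not overlap for 5 of the 9 genes (55.6%), 4 lower and 1 higher on the Hdc-/- arrays. Such separation held for 17.6% of all genes in the lower and 21.5% in the higher direction, 39.1% in all. The smallest p that 2 arrays against 2 allow in a two-sided exact permutation test of a single gene is 0.333.

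**Figure D1:**
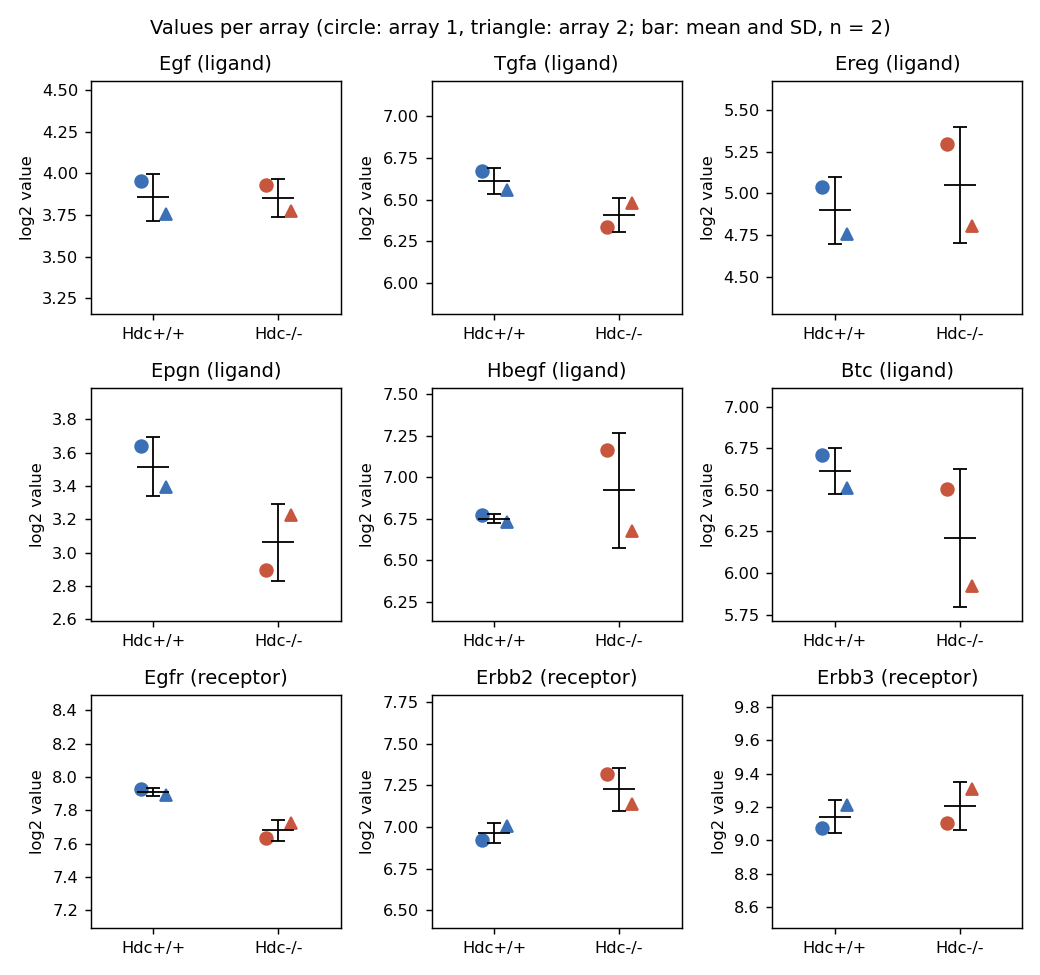
Deposited log2 value (vertical axis, the same span of values in every panel) of 6 ligand and 3 receptor genes on each array, by genotype label. Circles are arrays 1, triangles arrays 2, and black bars the mean and SD (n = 2); Epgn, Btc, Tgfa and Egfr lay lower and Erbb2 higher on both Hdc-/- arrays, and the other 4 genes overlapped.

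The promoters of the 5 genes whose groups did not overlap are shown so that their sequences can be set beside those values. This choice rests on separation alone, which 39.1% of all genes also showed. Each line gives the 250 bases before the annotated start in RefSeq, build GRCm38.p6, read 5′ to 3′ on the strand of the gene, and 7 of the 10 genes had an entry in the table used. Capitals mark matches, on either strand, to the TATA box letters TATAAA and to the GC box letters GGGCGG.
Epgn (chr5:91027267-91027516, plus strand): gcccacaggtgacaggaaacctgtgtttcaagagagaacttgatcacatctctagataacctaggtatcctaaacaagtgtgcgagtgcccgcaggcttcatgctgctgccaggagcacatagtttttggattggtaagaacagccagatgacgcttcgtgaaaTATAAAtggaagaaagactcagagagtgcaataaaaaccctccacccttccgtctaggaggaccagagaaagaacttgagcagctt
Btc (chr5:91402995-91403244, minus strand): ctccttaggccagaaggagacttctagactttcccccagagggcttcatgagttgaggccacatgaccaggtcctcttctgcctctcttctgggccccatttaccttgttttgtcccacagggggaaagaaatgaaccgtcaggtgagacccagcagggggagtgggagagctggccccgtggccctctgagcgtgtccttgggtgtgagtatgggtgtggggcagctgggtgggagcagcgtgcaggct
Tgfa (chr6:86194972-86195221, plus strand): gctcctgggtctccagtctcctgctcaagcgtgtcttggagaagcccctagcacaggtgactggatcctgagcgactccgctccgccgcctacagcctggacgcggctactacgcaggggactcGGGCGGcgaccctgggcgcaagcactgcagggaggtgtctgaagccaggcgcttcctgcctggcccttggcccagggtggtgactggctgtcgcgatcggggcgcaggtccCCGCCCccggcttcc
Egfr (chr11:16751953-16752202, plus strand): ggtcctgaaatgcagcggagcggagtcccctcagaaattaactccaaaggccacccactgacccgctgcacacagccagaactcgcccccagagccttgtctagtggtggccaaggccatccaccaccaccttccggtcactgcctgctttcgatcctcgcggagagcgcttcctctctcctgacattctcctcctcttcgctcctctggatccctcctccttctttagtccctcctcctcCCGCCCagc
Erbb2 (chr11:98412234-98412483, plus strand): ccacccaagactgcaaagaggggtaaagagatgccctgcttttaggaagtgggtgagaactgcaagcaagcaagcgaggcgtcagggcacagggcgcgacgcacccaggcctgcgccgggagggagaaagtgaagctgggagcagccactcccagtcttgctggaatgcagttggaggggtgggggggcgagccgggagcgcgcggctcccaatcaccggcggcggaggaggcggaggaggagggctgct
The 32851 windows of this kind were searched on both strands for 4 motifs, with no overlap between matches in the printed windows. TATAAA was found in 12.4% of all windows and, among the 5 printed, in that of Epgn, starting 86 bases before the gene's start. GGGCGG was found in 32.7% of windows, with 2 matches in Tgfa and 1 in Egfr. The AP-1 letters TGANTCA (6.75% of windows) and the cAMP response letters TGACGTCA (1.55%) had no match in the 5 windows. The window of Epgn held 46.8% G and C, that of Btc 59.6%, Egfr 60.8%, Erbb2 66% and Tgfa 69.2%, against a median of 52.4% over all windows. These matches describe letters and say nothing of binding.

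Among the ligands, Epgn and Btc had the largest differences, both toward lower values on the Hdc-/- arrays, and neither passed. Epgn encodes epigen, a ligand of epithelia that binds the EGF receptor with low affinity. It read 3.64 and 3.39 on the Hdc+/+ arrays 1 and 2, against 2.90 and 3.23 on the Hdc-/- arrays 1 and 2. Both Hdc-/- arrays lay below both Hdc+/+ ones, with 0.17 between the groups and 0.33 between the Hdc-/- arrays. The means were 3.52 ± 0.18 and 3.06 ± 0.23 (SD, n = 2 per group), a log2 difference of -0.45 (SE 0.20, 95% interval -0.95 to 0.04, limma adjusted p = 0.602), or 0.730 times the Hdc+/+ level. Its unadjusted p of 0.0644 ranked 2368th of 22180 genes. The difference was -0.29 without Hdc-/- array 1 and -0.62 without Hdc-/- array 2. On every array the Epgn signal lay below the median over genes (4.56 to 4.60), where signal over background is least certain.

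Btc encodes betacellulin, which binds both the EGF receptor and the receptor encoded by Erbb4. It read 6.71 and 6.51 on the Hdc+/+ arrays, against 6.50 and 5.92 on the Hdc-/- arrays. The groups were separated by 0.01 only, and Hdc-/- array 2 stood below the other 3. The means were 6.61 ± 0.14 and 6.21 ± 0.41 (SD, n = 2 per group), a log2 difference of -0.40 (SE 0.24, 95% interval -0.9995 to 0.20, limma adjusted p = 0.697). Without Hdc-/- array 2 the Btc difference was -0.11, and without Hdc-/- array 1 it was -0.69.

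Tgfa encodes transforming growth factor alpha, a ligand made by gastric surface and parietal cells that restrains acid secretion. Tgfa read 6.67 and 6.56 on the Hdc+/+ arrays, against 6.34 and 6.48 on the Hdc-/- arrays. The groups lay 0.08 apart, less than the 0.11 and 0.14 between the arrays within them. Tgfa differed by -0.20 (log2, SE 0.16, n = 2 per group, 95% interval -0.61 to 0.21, limma adjusted p = 0.784). It was -0.13 without Hdc-/- array 1.

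Squamous epithelium, which lines the mouse forestomach, is a known site of several of these ligands. Most of its markers read lower on the Hdc-/- arrays, as did Epgn, Btc and Tgfa. Hbegf (0.17) and Ereg (0.15) differed in the other direction, with overlapping groups. Of 12 such markers 11 were measured, and 5 were lower and 0 higher at an unadjusted p under 0.05. Their summed log2 signals were 10.16 and 10.26 on the Hdc+/+ arrays and 9.57 and 9.64 on the Hdc-/- arrays, and the median difference was -0.49. Perp, the brightest, made up most of these sums, at 9.81 and 9.84 against 9.33 and 9.34. Single squamous markers differed by as much as -2.45 (Sprr3) and -2.15 (Krt4), and the highest difference was 0.14 (Krt15). The groups overlapped for 3 of the 11, Krt6a, Krt15 and Trp63. The part of squamous tissue in the ligand differences was not tested. Adipocyte markers, 7 of 8 measured, held 5 lower and 0 higher genes by the same threshold, with summed signals of 10.20 and 10.84 against 8.55 and 9.11, and their part was not tested either.

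Hbegf, Ereg and Egf showed overlapping groups. Hbegf encodes heparin-binding EGF-like growth factor, which binds both the EGF receptor and that of Erbb4. Hbegf read 6.77 and 6.73 on the Hdc+/+ arrays, against 7.16 and 6.68 on the Hdc-/- arrays, so it was high on Hdc-/- array 1 and lowest on Hdc-/- array 2. The difference of 0.17 (SE 0.21, 95% interval -0.36 to 0.70, limma adjusted p = 0.880) turned to -0.08 without Hdc-/- array 1 and was 0.41 without Hdc-/- array 2.

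Ereg encodes epiregulin, a broad ligand of the family that is induced in inflamed epithelium. Ereg read 5.04 and 4.76 on the Hdc+/+ arrays, against 5.30 and 4.81 on the Hdc-/- arrays, again highest on Hdc-/- array 1. Its difference of 0.15 (SE 0.23, 95% interval -0.42 to 0.73, limma adjusted p = 0.903) turned to -0.09 without that array and was 0.40 without Hdc-/- array 2. A second, dimmer probe set of Ereg gave 3.98 and 4.04 against 4.04 and 4.13, a difference of 0.07. The median of the immune cell list was higher on both Hdc-/- arrays, while Hbegf and Ereg lay above both Hdc+/+ values on Hdc-/- array 1 alone, and the part of those cells was not tested. Among the single immune markers, the mast cell gene Cpa3 read 9.21 on Hdc-/- array 1 and 6.24 on Hdc-/- array 2, while the T cell gene Cd3e read 5.80 and 6.16; this pair was named after its values were seen.

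Egf encodes the founding ligand, made mainly in salivary gland and kidney. Egf read 3.96 and 3.76 on the Hdc+/+ arrays, against 3.93 and 3.77 on the Hdc-/- arrays, below the gene median of each array. Its groups lay within each other, with a difference of 0.00 (SE 0.17, 95% interval -0.43 to 0.43, limma adjusted p = 0.998). Its sign changed with the array left out, being 0.10 without Hdc+/+ array 1 and -0.10 without Hdc+/+ array 2.

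Epgn, Ereg, Areg and Btc follow each other on chromosome 5 in the gene table of GRCm38.p6, with no other protein-coding gene between them. The measured genes of this run differed in direction. Epgn differed by -0.45 and Btc by -0.40, while Ereg, which lies between them, differed by 0.15. The gene before the run, Mthfd2l, differed by -0.21 (SE 0.16) and the gene after it, Parm1, by -0.34 (SE 0.19), and neither passed.

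Among the receptors, Egfr lay lower and Erbb2 higher on both Hdc-/- arrays, and Erbb3 overlapped. Egfr, the gene of the EGF receptor, read 7.93 and 7.89 on the Hdc+/+ arrays and 7.64 and 7.72 on the Hdc-/- arrays. Its arrays differed little within each group, by 0.04 and 0.09, and the groups lay 0.17 apart. The means were 7.91 ± 0.03 and 7.68 ± 0.06 (SD, n = 2 per group), a log2 difference of -0.23 (SE 0.16, 95% interval -0.62 to 0.16, limma adjusted p = 0.742), or 0.853 times the Hdc+/+ level. Leaving out any 1 array gave -0.27 to -0.19. Limma draws its variance toward that of all genes, so the SE is wider than the spread of these 4 values alone.

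Erbb2 encodes the receptor that binds no known ligand and serves as partner of the others. Erbb2 read 6.92 and 7.01 on the Hdc+/+ arrays, against 7.32 and 7.14 on the Hdc-/- arrays. The groups lay 0.13 apart, with Hdc-/- array 1 highest. The means were 6.96 ± 0.06 and 7.23 ± 0.13 (SD, n = 2 per group), a log2 difference of 0.26 (SE 0.17, 95% interval -0.15 to 0.68, limma adjusted p = 0.716), or 1.199 times the Hdc+/+ level. It was 0.17 without Hdc-/- array 1.

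Erbb3 encodes a receptor with little kinase activity of its own that binds neuregulins and couples to PI3 kinase. Erbb3 read 9.07 and 9.21 on the Hdc+/+ arrays, against 9.10 and 9.31 on the Hdc-/- arrays. The difference was 0.07 (SE 0.17, 95% interval -0.36 to 0.49, limma adjusted p = 0.960), and it turned to -0.04 without Hdc-/- array 2. Arrays of the same genotype lay 0.14 and 0.21 apart, farther than the genotype means.

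**Figure D2:**
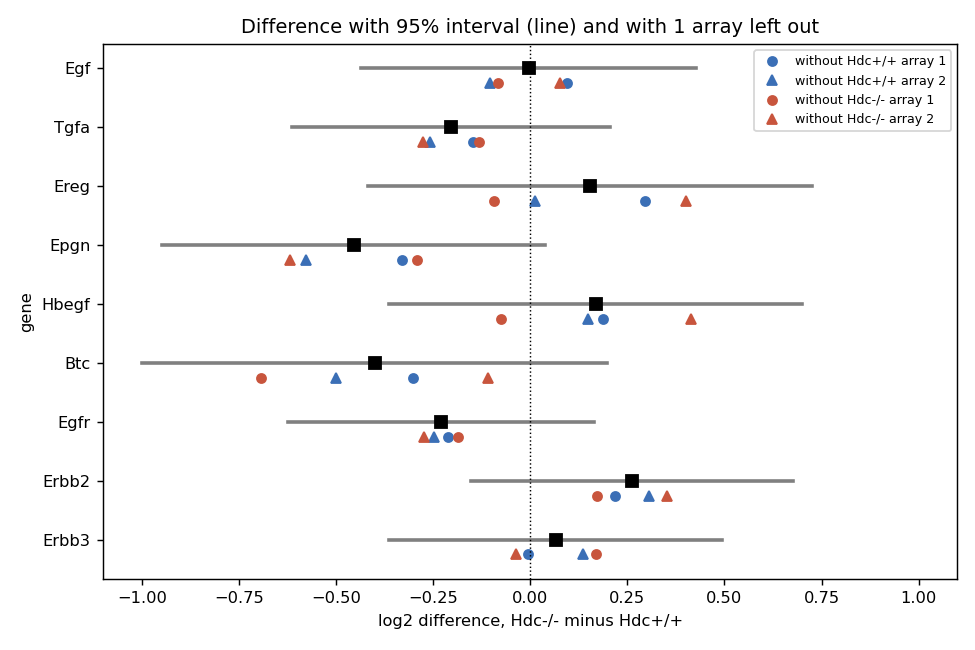
Log2 difference, Hdc-/- minus Hdc+/+ (horizontal axis), of each gene (black square) with its 95% interval from limma (grey line), and the same difference with each array left out (coloured marks). Every interval includes 0; Epgn comes nearest to leaving it out, at -0.95 to 0.04, and Egf, Ereg, Hbegf and Erbb3 change sign with 1 array left out.

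Liver expresses Egfr and Erbb3, so the hepatocyte markers were set beside them. All 13 hepatocyte markers were measured, and 12 were lower and 0 higher on the Hdc-/- arrays at an unadjusted p under 0.05. Around gene means, the hepatocyte list read 0.66 and 3.05 on the Hdc+/+ arrays and -1.97 and -1.82 on the Hdc-/- arrays. Between the Hdc+/+ arrays Egfr read 7.93 and 7.89 and Erbb3 9.07 and 9.21. Without Hdc+/+ array 2 the Egfr difference was -0.25 and the Erbb3 difference 0.14, and Hdc+/+ array 1, which stays in that comparison, also read above both Hdc-/- arrays for the hepatocyte list. The part of liver tissue in the Egfr and Erbb3 values was not tested.

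**Figure D3:**
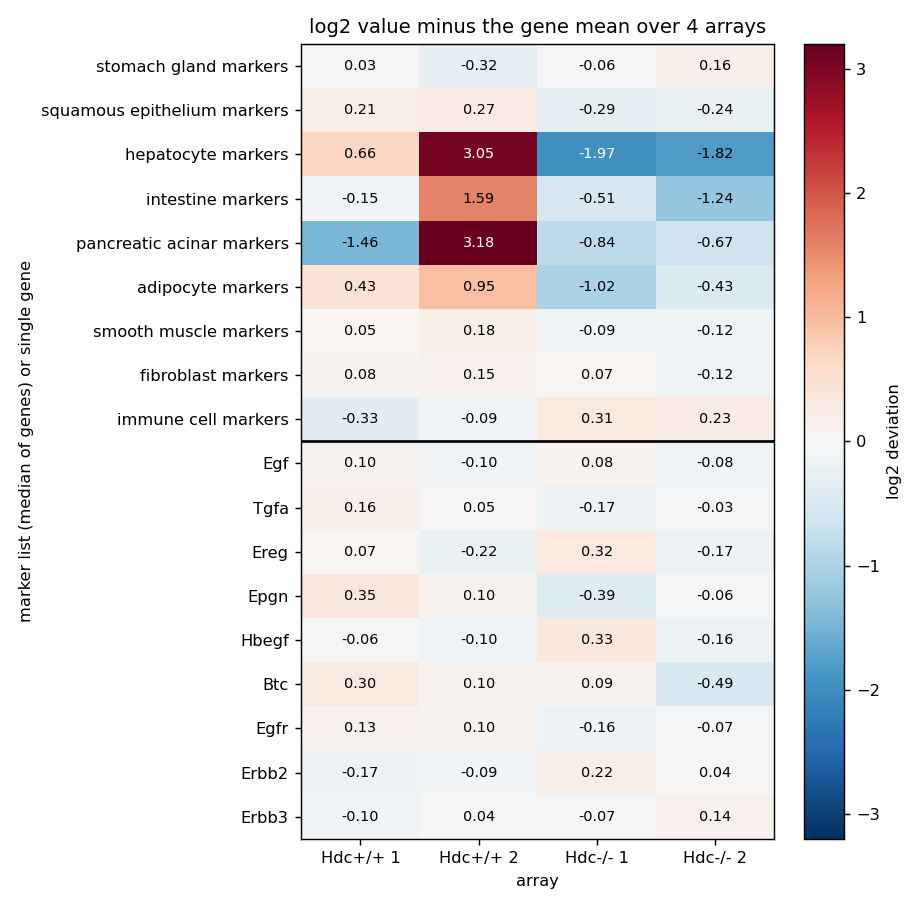
Log2 value minus the gene mean over the 4 arrays (colour and printed number), for the median of each tissue marker list (rows above the line) and for each ligand and receptor gene (rows below it), by array (columns). Hepatocyte and pancreatic markers reach 3.05 and 3.18 on Hdc+/+ array 2, while the ligand and receptor genes stay between -0.49 and 0.35.

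The rest of the receptor family and the neuregulins, its other ligands, held the largest difference near these genes. Erbb4 encodes the remaining receptor, which binds neuregulins as well as Btc and Hbegf products. Erbb4 read 2.54 and 2.55 on the Hdc+/+ arrays, against 3.42 and 3.55 on the Hdc-/- arrays. Both groups were tight and lay well apart, though below the gene median of every array. Erbb4 stood at percentiles 10.4 and 11.8 of genes on the Hdc+/+ arrays and 24.6 and 25.6 on the Hdc-/- arrays. Signal over background is least certain at such levels. The difference was 0.94 (SE 0.16, n = 2 per group), with an unadjusted p of 0.00139 and a limma adjusted p of 0.279, so it did not pass over all genes. Leaving out any 1 array gave 0.87 to 1.01. It was the 1 of 5 genes in this list at an unadjusted p under 0.05, and the list's median difference was 0.00.

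The neuregulin genes gave smaller values. Nrg4 differed by -0.35 (SE 0.16) and Nrg2 by -0.21 (SE 0.16), with groups that did not overlap. Nrg1 read 4.35 and 3.98 on the Hdc+/+ arrays, against 4.87 and 4.13 on the Hdc-/- arrays, a difference of 0.33 (SE 0.29) that was -0.04 without Hdc-/- array 1. Like Hbegf and Ereg, Nrg1 was highest on that array.

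Of 10 genes for the release of ligands from the membrane, 0 passed over all genes by limma, and at an unadjusted p under 0.05 there were 1 lower and 0 higher. That gene was Adam17, whose protease sheds the products of Tgfa, Areg, Ereg, Epgn and Hbegf. Adam17 read 6.99 and 7.02 on the Hdc+/+ arrays, against 6.57 and 6.20 on the Hdc-/- arrays. Both Hdc-/- values lay below both others, a difference of -0.63 (SE 0.19, unadjusted p = 0.0187, limma adjusted p = 0.483), or -0.44 without Hdc-/- array 2. Timp3, an inhibitor of that protease, differed by -0.45 (SE 0.18) and Adam8, a protease of leukocytes, by 0.53 (SE 0.24). The list's median was 0.15, opposite in sign to Adam17, and it was -0.08 without Hdc-/- array 1. The iRhom genes Rhbdf1 and Rhbdf2, which carry ADAM17 to the cell surface, differed by -0.38 and 0.21; this pair was named after its values were seen.

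Of 25 genes for signalling below the receptors 20 were analysed here, and none of these 20 passed by limma or reached an unadjusted p under 0.05. The smallest p-values belonged to Araf (0.31, SE 0.19) and Map2k2 (0.27, SE 0.18), a Raf kinase and a MAP kinase kinase gene, and to Map2k1 (-0.32, SE 0.21), the other MAP kinase kinase. The median over the 20 was 0.03, with 10 positive and 10 negative differences.

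Of 18 inhibitor genes, 0 passed by limma over all genes, and at an unadjusted p under 0.05 there were 1 higher and 0 lower. Lrig1, which encodes a membrane protein that sends ErbB receptors for degradation and marks epithelial stem cells, read 6.03 and 5.95 on the Hdc+/+ arrays and 6.58 and 6.40 on the Hdc-/- arrays. Its groups lay apart, with a difference of 0.50 (SE 0.17, unadjusted p = 0.0256, limma adjusted p = 0.509). Socs5, which also promotes loss of the EGF receptor, differed by 0.40 (SE 0.17). Dusp5, a phosphatase of MAP kinase, differed by -0.48 (SE 0.20). The list's median was -0.05, with 8 of 18 genes positive.

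Genes that EGF receptor signalling is known to induce differed in both directions. Of 18 listed, 17 were measured, 0 passed by limma over all genes, and at an unadjusted p under 0.05 there were 2 higher and 1 lower. Fos, an AP-1 transcription factor gene, read 7.70 and 7.93 on the Hdc+/+ arrays and 7.02 and 6.96 on the Hdc-/- arrays, a difference of -0.82 (SE 0.17, unadjusted p = 0.00359, limma adjusted p = 0.342). Myc, a growth regulator, read 5.56 and 5.72 against 6.50 and 6.32, a difference of 0.77 (SE 0.17, unadjusted p = 0.00501, limma adjusted p = 0.371). Ier3, an early response gene, differed by 0.59 (SE 0.18). In all 3 the groups lay apart, Fos in the direction opposite to Myc and Ier3. The list's median was -0.05, and it was -0.13 without Hdc+/+ array 2. Many other signals induce these genes too.

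**Figure D4:**
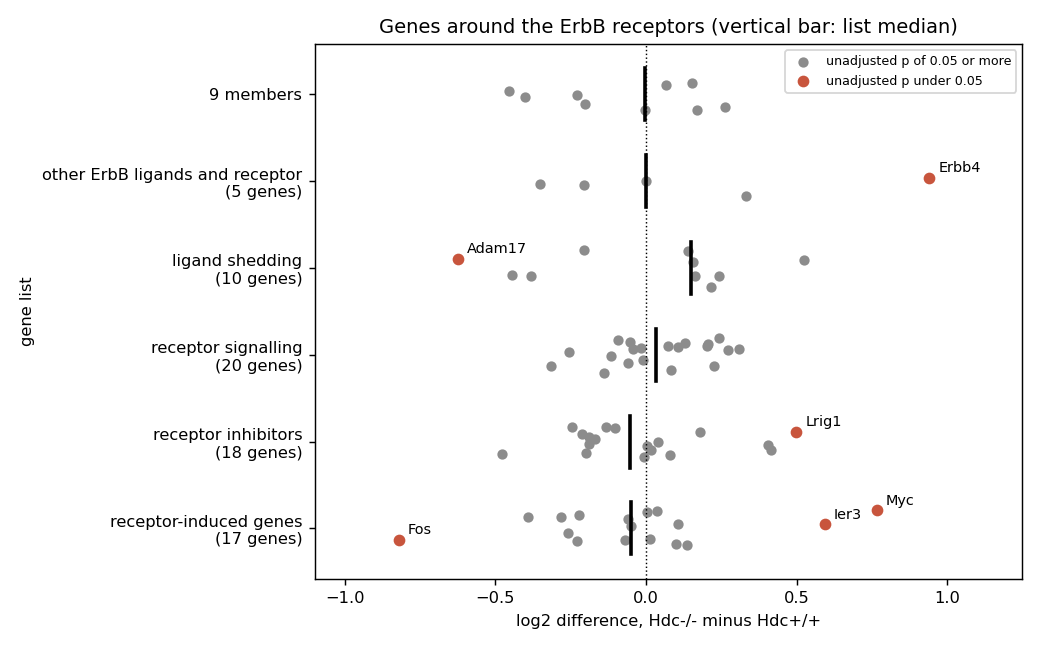
Log2 difference, Hdc-/- minus Hdc+/+ (horizontal axis), of each measured gene in 6 lists (rows), with small vertical scatter for legibility and a bar at each list's median. Red points, labelled by gene, had an unadjusted p under 0.05: Erbb4, Lrig1, Myc and Ier3 higher and Adam17 and Fos lower, none of which passed after adjustment.

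To place the 2 extremes among all genes, the 3 genes with the nearest pattern were found by the root mean square difference of centred log2 values over the 4 arrays. For Erbb2 these were Cd300lf, Pdcd11 and Tmem132cos, each at 0.013. For Epgn they were Olfr304 (0.013), Serpina9 (0.018) and Olfr213 (0.022). Other genes also came near: 1614 of 19394 lay within 0.1 of Erbb2 and 231, a smaller share, within 0.1 of Epgn.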

How the data were processed

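RNA of 4 stomach samples was measured on Affymetrix arrays, from 5.5 ug of total RNA each, per the labels' protocols. The deposited values are log2 signals that the authors normalized with RMA; oligo and Affymetrix Power Tools are named too, per the submitters' processing notes, with no version. How probes were summarised, which filters were used and the genome build of the arrays were not given in the sources used here. Without background values no gene was called absent, and dim genes were kept.

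Of 41345 probe sets, 23521 had 1 symbol, 1814 several and 16010 none, and the brightest stood for its gene (22180 genes). Genotypes were compared by limma (version 3.58.1, R 4.3.3) with no covariate, on 2 residual and 3.62 prior degrees of freedom. The fit was tested on simulated data. Intervals are 95% moderated intervals, and the number of arrays limits precision.

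Pathway genes named are the 3 with the smallest p per list, with Erbb4 and Nrg1, except where said otherwise. Genes and lists were chosen with earlier results of these data known. Other filters, probe set means, normalizations, priors, a replicate block and leaving out each array were tried.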

Additional observations from a re-analysis of the deposited data

How the results depend on the processing

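Over all alternatives the 9 genes gave 105 differences. Of these, 0 passed by limma (lowest adjusted p = 0.514), 98 kept their direction and 7 reversed, all of them in Egf, Ereg, Hbegf and Erbb3. The filters, the prior and the replicate block leave each difference as it is, so no direction could reverse there. Probe set means changed only the difference of Ereg. Egf was 0.0066 with arrays centred on the median. With 1 array left out, Egf ran from -0.10 to 0.10, Ereg from -0.092 to 0.40, Hbegf from -0.076 to 0.41 and Erbb3 from -0.037 to 0.17, and Nrg1, outside the 9, from -0.038 to 0.70. At an unadjusted p under 0.05, limma reached 1 of the 9 genes, Epgn, with quantile normalization (adjusted p = 0.538) and with cyclic loess (adjusted p = 0.514). With an array left out it reached 0 to 1 of them, Btc without Hdc-/- array 1 and Epgn without Hdc-/- array 2.

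Over all genes limma called 2 higher and 3 lower with quantile normalization, and 3 higher and 2 lower with a trended and robust prior. With an array left out it called 0 to 3 higher and 0 to 158 lower, the most without Hdc+/+ array 1. Unadjusted, 353 to 1025 were higher and 701 to 1074 lower; 682 were lower without the dimmest 50% of genes. The lone array was assumed to vary like the others. With the replicate block, 1 gene was called higher and 6 lower, and 520 were higher unadjusted. Deviations of same-numbered samples correlated at -0.12 over genes. With 2 arrays per genotype this is a single value, and it cannot show whether the numbers pair the samples. With crossed numbers, chosen after seeing the data, 0 were higher and 0 lower.

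List medians shifted. Without the dimmest 25% of genes the other ErbB list had -0.10, with 0 genes at an unadjusted p under 0.05, since Erbb4 was left out. Without the dimmest 50% of genes that list had no gene, ligand shedding had -0.033 and inhibitors -0.10. Quantile normalization gave 0.064 for signalling and -0.033 for inhibitors, and cyclic loess -0.091 for inhibitors. Cyclic loess and the trended prior each gave 2 genes in ligand shedding and 2 in inhibitors at an unadjusted p under 0.05, and the block gave 0 in inhibitors. With an array left out, medians ran from -0.076 to 0.054 (other ErbB), -0.082 to 0.14 (shedding), -0.011 to 0.079 (signalling), -0.055 to 0.0051 (inhibitors) and -0.13 to -0.016 (induced genes), with 1 to 2, 0 to 3, 0 to 1, 0 to 2 and 2 to 3 genes at an unadjusted p under 0.05. The causes of these shifts were not tested.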
